A study of Homo sapiens with 9 samples.

Results

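The 9 genes described here encode secreted ligands of the transforming growth factor beta (TGF-beta) family and the proteins that hold them in check: TGFB1, TGFB2, TGFB3, INHBA, INHBE and GDF15 on the ligand side, FST and FSTL3 as extracellular antagonists, and SMAD7 as the intracellular inhibitor. They were taken by gene symbol, 9 of the 60683 genes in the count table, and all 9 passed the filter of at least 10 counts over the 9 libraries, as did 22672 genes in all. RNA was sequenced from Hep3B, an established human liver cancer cell line, after 24 h in 3 groups of 3 replicate wells. The groups were vehicle (DMSO) at 20% O2, vehicle at 1% O2, and the compound 32-134D, which the series title calls an inhibitor of hypoxia-inducible factors (HIF), at 1% O2. No library of cells given 32-134D at 20% O2 was analysed here, so an effect of the compound apart from low oxygen cannot be told apart from its effect on hypoxic cells, and the labels state no dose.

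TGF-beta ligands are secreted as latent complexes, are released by integrins or thrombospondin, and signal through paired serine/threonine kinase receptors to SMAD2 and SMAD3, while bone morphogenetic proteins (BMP) signal to SMAD1, SMAD5 and SMAD9. Activins are dimers of inhibin beta chains and are trapped outside the cell by follistatin (FST) and follistatin-like 3 (FSTL3), and SMAD7 blocks the receptors and is itself induced by them. GDF15 is a divergent member of the family that acts on a brainstem receptor, GFRAL with RET, and both it and INHBE, the beta chain of the liver activin E, are known to rise with the integrated stress response.

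TGFB2 and TGFB3, isoforms of one ligand, were called in opposite directions in hypoxia and with 32-134D, and their promoters are shown for that reason. Of the 9 members, 8 had promoter windows in the RefSeq table for GRCh38.p14, 11 windows in all, running from 250 bases before to 50 bases after an annotated start, and INHBE had none. The letters of the HIF core, ACGTG or GCGTG on either strand, were searched in each, and the runs in capitals below mark them. Each line gives the 250 bases before a start, 5′ to 3′ on the strand of the gene: chr1:218345086-218345335 on the plus strand for TGFB2, and chr14:75983012-75983261 and chr14:75981996-75982245 on the minus strand for the pair of TGFB3 starts.
TGFB2: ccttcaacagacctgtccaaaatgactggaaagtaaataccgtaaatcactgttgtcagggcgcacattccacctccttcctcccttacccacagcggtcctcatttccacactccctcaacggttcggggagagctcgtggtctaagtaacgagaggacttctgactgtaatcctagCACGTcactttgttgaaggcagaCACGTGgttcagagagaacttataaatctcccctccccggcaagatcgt
TGFB3, first start: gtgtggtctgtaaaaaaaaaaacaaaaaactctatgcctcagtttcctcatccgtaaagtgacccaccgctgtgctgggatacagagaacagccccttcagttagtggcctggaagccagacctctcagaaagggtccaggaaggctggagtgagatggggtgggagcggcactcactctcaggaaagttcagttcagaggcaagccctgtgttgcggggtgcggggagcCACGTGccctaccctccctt
TGFB3, second start: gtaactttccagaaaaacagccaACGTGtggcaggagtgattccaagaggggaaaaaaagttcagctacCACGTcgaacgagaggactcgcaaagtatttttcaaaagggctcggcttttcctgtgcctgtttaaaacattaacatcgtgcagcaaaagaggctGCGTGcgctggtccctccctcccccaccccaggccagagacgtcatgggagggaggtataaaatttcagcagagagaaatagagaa
The TGFB2 window held the core at -72 to -68 and, on both strands of the palindrome CACGTG, at -49 to -44 from the start. The first TGFB3 window held the same palindrome at -20 to -15, and the second held a core at -227 to -223, at -181 to -177 and at -86 to -82. The core also lay in the TGFB1 window and in 1 of 3 SMAD7 windows, and in none of the windows of INHBA, GDF15, FST and FSTL3. It is a short motif that 48.4% of all 35116 RefSeq promoter windows contained, or 43.2% in the part before the start, and it stood before both the gene that was higher at 1% O2 and the gene that was lower. Neither TGATGNAA, the type bound by ATF4 and CHOP (3.62% of windows), nor GTCTAGAC, the SMAD palindrome (0.202% of windows), lay in a member's window on either strand. A match describes letters only, and no binding was measured here.

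Total counts per library ran from 6013980 to 40549699, and levels are given in CPM, read counts relative to the TMM-scaled size of the library. The 9 hepatocyte markers checked exceeded 1 CPM in every library, while VWF, KDR and CD3E, defining markers of endothelium and T cells, had no counts. Other markers of non-hepatocyte types were present, led by LYZ (7.02 to 29.4 CPM) and PDGFRB (9.44 to 29.3 CPM), with PECAM1 of endothelium at 0.0943 to 1.28 CPM. Replicates 1 and 2 of 32-134D were close to each other over all genes (chi-square per degree of freedom 2.08), whereas replicate 3 stood apart from both (40.5 and 36.2). The members' values are therefore also given without it, and those of other genes where its loss ended a call or moved a fold by over 1.5 times. In the vehicle groups replicate 1 differed most from the others, though by less. Its values were 6.72 and 13.3 at 20% O2 and 8.63 and 13 at 1% O2, against 1.64 and 2.6 between replicates 2 and 3. Calls required both a fold change above 1.5 and an FDR below 0.05 in edgeR's quasi-likelihood test, with Benjamini-Hochberg adjustment over all 22672 genes.

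At 1% O2 against 20% O2 in vehicle, 4 of the 9 members were higher (GDF15, INHBE, TGFB3 and SMAD7), where 19.5% of all genes tested were higher. TGFB2 and FST were lower, where 20.3% of all genes were, and TGFB1, INHBA and FSTL3 were not called. With 32-134D at 1% O2, TGFB2 was higher (1 of 9, against 16.2% of all genes) and GDF15, INHBE, TGFB3 and SMAD7 were lower (4 of 9, against 13.7%). Against vehicle at 20% O2, the cells given 32-134D at 1% O2 had 2 members higher, GDF15 and INHBE, where 3% of all genes were higher, and 0 lower, where 0.516% were. The median log2 fold change over the 9 members was 0.14, 0.0011 and 0.41 in these comparisons, against 0.0010, -0.012 and -0.0028 over all genes tested. The libraries of the groups compared did not overlap for 7, 6 and 5 of the 9 members, against 60.5%, 56.1% and 29.8% of all genes tested. All 6 counts of called members were the same without replicate 3 of 32-134D, when 20.3% and 21.6% of genes were higher and lower at 1% O2, 16.7% and 14.1% with 32-134D, and 2.81% and 0.372% against 20% O2. In bulk RNA, fewer cells that express a gene and less of its RNA per cell cannot be told apart. The first and second comparisons share the vehicle libraries at 1% O2, and the third shares libraries with both.

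**Figure D1:**
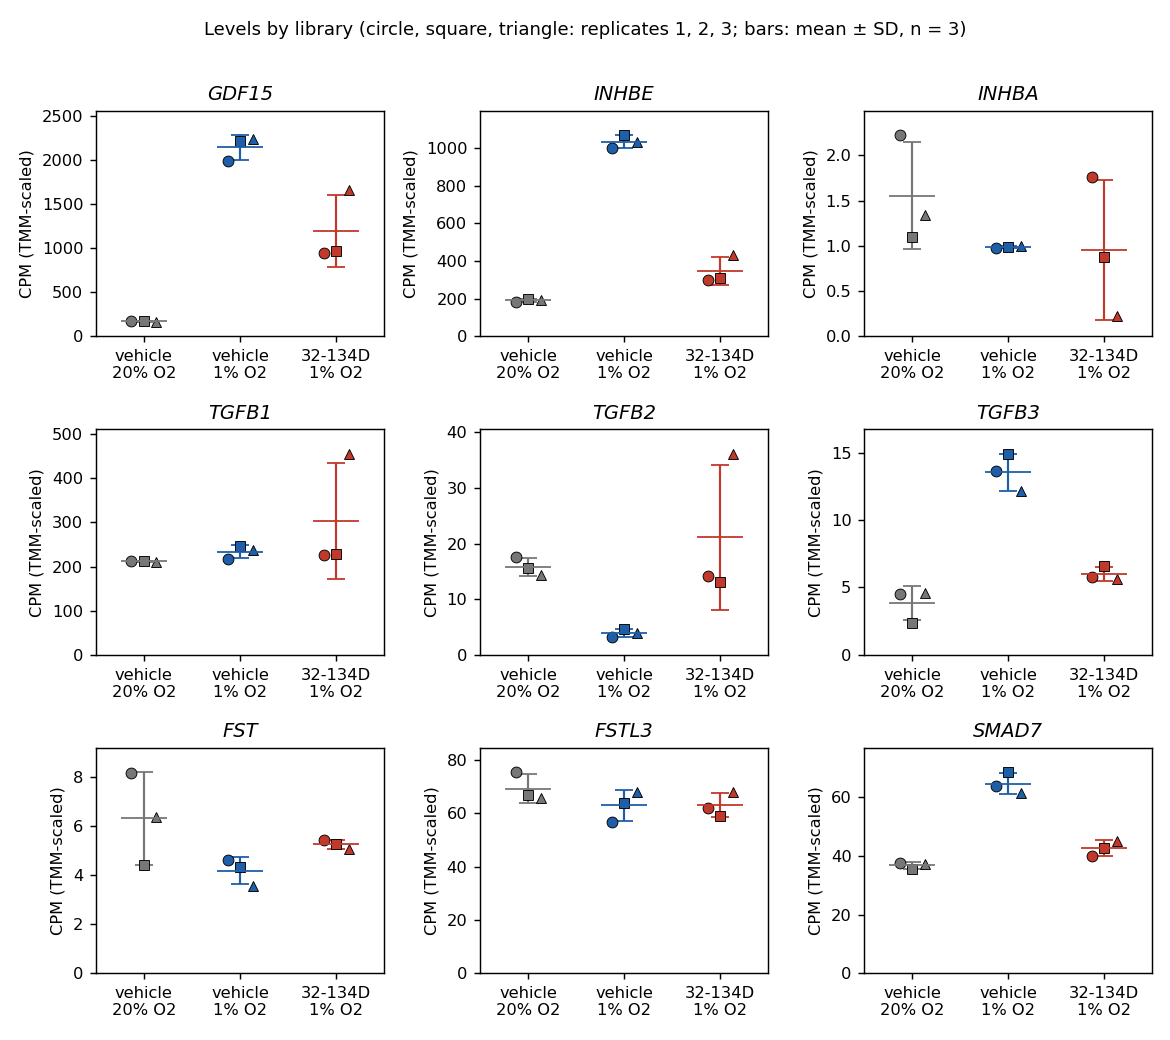
Level of each member in each library, in TMM-scaled CPM on axes that start at 0, for vehicle at 20% O2 (grey), vehicle at 1% O2 (blue) and 32-134D at 1% O2 (red), with the mean and SD of 3 libraries. GDF15, INHBE, TGFB3 and SMAD7 peak in the blue group and TGFB2 dips there, and the triangle of 32-134D stands high for GDF15, TGFB1 and TGFB2 and low for INHBA.

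TGFB1, the most widely expressed isoform and a regulator of fibrosis and immune tolerance, was the most abundant TGF-beta isoform per transcript length in every group. It is encoded on chromosome 19 (GRCh38, 41301587 to 41353911, minus strand). Its level was 212.7, 212.9 and 210.2 CPM at 20% O2, 217, 246.5 and 237.9 CPM at 1% O2 and 226.8, 228.2 and 455.5 CPM with 32-134D. The libraries of the vehicle groups lay just apart, and among the 32-134D libraries replicate 3 alone lay far above the others. TGFB1 was not called in hypoxia (log2 fold change 0.14, 95% interval -0.28 to 0.56, edgeR FDR 0.571), and its sign turned in a fit with total library sizes in place of TMM (-0.074). With 32-134D the log2 fold change was 0.38 (interval -0.040 to 0.79, FDR 0.13), and without replicate 3 it was -0.038 (interval -0.18 to 0.11). Without replicate 1 it was called, at 0.61 with FDR 0.012. Against 20% O2 the value was 0.52 (FDR 0.116), and it was called at 0.69 without replicate 1 and at 0.68 without replicate 2 of 32-134D but was 0.10 without replicate 3. HNRNPUL1 on the opposite strand shares 215 exon bases with TGFB1, and it had 121109 counts over all libraries where TGFB1 had 56266; the strand setting of the counting is not given in the sources used here.

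TGFB2, an isoform prominent in development and in epithelial to mesenchymal transition, fell at 1% O2 and rose with 32-134D. It lies on chromosome 1 (218346235 to 218444619, plus strand). The libraries held 17.57, 15.55 and 14.36 CPM at 20% O2, 3.21, 4.62 and 3.98 CPM at 1% O2, and 14.1, 13.13 and 36.17 CPM with 32-134D. The hypoxic libraries were below all others, replicates 1 and 2 of 32-134D lay just under the 20% O2 libraries, and replicate 3 lay above them. The level was 4.06-fold lower at 1% O2 (log2 fold change -2.02, SE 0.33, edgeR FDR 0.000103) and 5.38-fold higher with 32-134D (2.43, SE 0.32, FDR 1.97e-05). Without replicate 3 the second change was 3.54-fold (1.82, SE 0.13, FDR 2.81e-12). That library was left out because it stood apart, so the smaller SE and FDR of this fit are not stronger evidence. Between 32-134D and 20% O2 the difference was 0.41 (interval -0.23 to 1.05, FDR 0.448), and -0.20 (interval -0.46 to 0.052) without replicate 3. TGFB2-OT1, annotated on the same strand over 1371 of the 5151 exon bases of TGFB2, had 0 counts in every library. How reads over both genes were counted is not given in the sources used here, so a loss of reads from TGFB2 over these bases was not tested.

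TGFB3, an isoform known from palate fusion and wound repair and a hypoxia-responsive gene in other tissues, rose at 1% O2 and fell with 32-134D. It lies on chromosome 14 (75958099 to 75982991, minus strand). Its level was 4.52, 2.36 and 4.56 CPM at 20% O2, 13.6, 14.9 and 12.1 CPM at 1% O2, and 5.76, 6.60 and 5.63 CPM with 32-134D. The hypoxic libraries were above all others, and the 32-134D libraries lay between the vehicle groups without touching either. It was 3.3-fold higher at 1% O2 (log2 fold change 1.72, SE 0.18, edgeR FDR 9.83e-07) and 2.25-fold lower with 32-134D (-1.17, SE 0.16, FDR 2.66e-05; -1.13 without replicate 3). Against 20% O2 the remaining difference of 0.55 (SE 0.18, FDR 0.0718) was not called, nor was it without replicate 3 (0.55, FDR 0.0274), where the fold was 1.47. TGFB3-AS1 on the opposite strand, with 163 shared exon bases, had 5 counts in all. The replicate with 2.36 CPM is the smallest library, where TGFB3 rested on 15 counts.

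The change in isoform make-up can be read within each library, where scaling cancels. TGFB1 had 12.1, 13.6 and 14.6 counts for each TGFB2 count at 20% O2, 67.4, 53.1 and 59.6 at 1% O2, and 16.1, 17.4 and 12.6 with 32-134D. The hypoxic ratios lay far above the rest, replicates 1 and 2 of 32-134D lay above every 20% O2 ratio, and replicate 3, where TGFB1 and TGFB2 were both high, lay within their range. Per kilobase of exon, which allows genes to be compared, the order at 20% O2 was TGFB1 (65.5 CPM per kb), TGFB2 (3.07) and TGFB3 (0.776). At 1% O2 TGFB3 (2.76 CPM per kb) stood above TGFB2 (0.764), with no overlap between their libraries, and with 32-134D TGFB2 (4.10) again stood above TGFB3 (1.22).

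INHBE rose steeply at 1% O2, and about as much of it as of TGFB1 was present per transcript length at 20% O2. The gene lies on chromosome 12 (57452323 to 57459280, plus strand). Levels were 183.2, 196 and 195.5 CPM at 20% O2, 997.5, 1068 and 1034 CPM at 1% O2, and 301.2, 309.6 and 430.2 CPM with 32-134D. The 3 groups did not overlap, and the 32-134D libraries lay nearer to 20% O2. INHBE was 5.39-fold higher at 1% O2 (log2 fold change 2.43, SE 0.12, edgeR FDR 3.99e-10) and 2.98-fold lower with 32-134D (-1.57, SE 0.11, FDR 5.71e-08; 3.38-fold lower without replicate 3). It stayed 1.81-fold higher with 32-134D than at 20% O2 (0.86, SE 0.11, FDR 0.000177; 1.59-fold without replicate 3).

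INHBA, the chain of activin A, had 5 to 62 counts per library and was not called in any comparison. The counts in INHBA, on chromosome 7 (41667168 to 41705834, minus strand), were 31, 7 and 44 at 20% O2, 37, 21 and 29 at 1% O2, and 62, 26 and 5 with 32-134D. On the CPM scale the vehicle libraries at 1% O2 lay between 0.981 and 1.00, just under the lowest 20% O2 library at 1.10, and the 32-134D libraries ran from 0.229 to 1.76. The log2 fold change was -0.67 in hypoxia (interval -1.67 to 0.32, edgeR FDR 0.244), 0.030 with 32-134D (interval -0.92 to 0.98, FDR 0.97) and -0.64 against 20% O2 (FDR 0.437), and each interval reached past 1.5-fold in at least 1 direction. The value with 32-134D was 0.44 (FDR 0.238) without replicate 3 and -0.70 without replicate 1, and that against 20% O2 was -0.23 without replicate 3. INHBA-AS1 on the opposite strand had 25 counts over all libraries and shares 0 exon bases with INHBA.

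Among the other inhibin chains, from the wider list of pathway genes, INHBC fell where INHBE rose. INHBC had 5.50 to 6.45 CPM at 20% O2, 1.43 to 2.07 at 1% O2 and 1.83 to 5.86 with 32-134D (hypoxia log2 fold change -1.81, SE 0.32, edgeR FDR 0.00019). INHBE thus had 30.6, 35.2 and 30.3 counts for each INHBC count at 20% O2, 691, 620 and 494 at 1% O2, and 69.2, 52.7 and 232 with 32-134D. The highest of the last 3 values is replicate 3, and the 3 groups did not overlap. INHA, the alpha chain that turns activins into inhibins, was 8.33-fold higher at 1% O2 (2.51 to 3.47 CPM against 19.9 to 29.5 CPM, FDR 4.03e-08) and 11.4-fold lower with 32-134D (1.37 to 3.01 CPM, FDR 1.93e-08). INHBB, the chain of activin B, went from 35.1 to 40.5 CPM at 20% O2 to 109.1 to 127 CPM at 1% O2 and 30.2 to 42.9 CPM with 32-134D, a log2 fold change of 1.61 in hypoxia (SE 0.12, FDR 3.97e-08) and of -1.60 with 32-134D (SE 0.12, FDR 8.69e-08). Between 32-134D and 20% O2, INHA (log2 fold change -0.46, FDR 0.311) and INHBB (0.017, FDR 0.96) were not called, and their difference from INHBE was not tested.

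GDF15 was the highest of the 9 members per kilobase in every group, and its change at 1% O2 had the highest fold change of the 9. It lies on chromosome 19 (18374731 to 18389176, plus strand). Its level was 171.5, 179.2 and 167.5 CPM at 20% O2, 1982, 2210 and 2233 CPM at 1% O2, and 943.7, 972.9 and 1660 CPM with 32-134D. Every 32-134D library lay below the lowest hypoxic one and far above the 20% O2 libraries, with replicate 3 nearest to vehicle at 1% O2. GDF15 was 12.4-fold higher at 1% O2 (log2 fold change 3.63, SE 0.18, edgeR FDR 5.23e-10) and 1.8-fold lower with 32-134D (-0.85, SE 0.16, FDR 0.000482), or 2.23-fold lower without replicate 3 (-1.16, SE 0.072). Against 20% O2 it was still 6.91-fold higher with 32-134D (2.79, SE 0.17, FDR 1.92e-07), or 5.55-fold without replicate 3. The microRNA gene MIR3189 lies inside GDF15 on the same strand but shares 0 exon bases with it.

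GDF15 and INHBE, both stress-linked ligands, did not keep a fixed ratio. GDF15 had 0.936, 0.914 and 0.857 counts for each INHBE count at 20% O2, 1.99, 2.07 and 2.16 at 1% O2, and 3.13, 3.14 and 3.86 with 32-134D. The 3 groups did not overlap, and the ratio was highest with 32-134D, a pair that was chosen after its values were seen and is given with no test. The 8 genes listed with them as stress genes, ATF4, DDIT3, ATF3, TRIB3, CHAC1, ASNS, SESN2 and PPP1R15A, were all higher at 1% O2, with a median log2 fold change of 2.41, against 19.5% of all genes. With 32-134D, 7 of the 8 were lower (median -1.16), against 13.7% of all genes, SESN2 being the exception at -0.24 (edgeR FDR 0.104). CHAC1, at -0.73, lost its call without replicate 1 or 2 of 32-134D, at -0.51 and -0.58. Against 20% O2, 7 of the 8 were higher with 32-134D (median 1.41), where 3% of all genes were. These 7 ran from 0.88 for DDIT3, which encodes CHOP, to 3.30 for ATF3, a stress-induced transcription factor. SESN2, at 0.54, was not called there, but it was called at 0.59 to 0.61 without replicate 2 or 3 of vehicle at 20% O2, replicate 3 of vehicle at 1% O2 or replicate 1 or 2 of 32-134D. ATF4, the transcription factor of the integrated stress response, had 220.9 to 238.4 CPM at 20% O2, 974.2 to 1019 CPM at 1% O2 and 407.9 to 484.4 CPM with 32-134D.

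FST was lower at 1% O2 by a margin near the threshold. The gene, on chromosome 5 (53480409 to 53487134, plus strand), had 8.18, 4.40 and 6.36 CPM at 20% O2, 4.64, 4.34 and 3.56 CPM at 1% O2, and 5.45, 5.25 and 5.08 CPM with 32-134D. The vehicle groups overlapped, since the lowest 20% O2 library, on 28 counts, lay below the highest hypoxic one. The fall was 1.55-fold (log2 fold change -0.63, SE 0.19, edgeR FDR 0.0104), and the call was lost without replicate 1 of vehicle at 20% O2 (-0.49) or without replicate 3 of vehicle at 1% O2 (-0.54). With 32-134D FST differed by 0.33 (interval -0.058 to 0.72, FDR 0.153; 0.35 without replicate 3) and against 20% O2 by -0.30 (FDR 0.346), a value that was also -0.30 without replicate 3.

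FSTL3, the follistatin-like antagonist of activins, had the smallest absolute log2 fold change of the 9 members in each comparison. On chromosome 19 (676365 to 683399, plus strand), it had 75.4, 66.7 and 65.5 CPM at 20% O2, 56.7, 64.0 and 68.1 CPM at 1% O2, and 62, 59.0 and 67.9 CPM with 32-134D. All 3 groups overlapped. The log2 fold change was -0.14 in hypoxia (interval -0.33 to 0.055, edgeR FDR 0.215), 0.0011 with 32-134D (interval -0.19 to 0.19, FDR 0.995) and -0.14 against 20% O2 (interval -0.33 to 0.056, FDR 0.388), so the intervals exclude a 1.5-fold change. Without replicate 3 the value with 32-134D was -0.054 and that against 20% O2 was -0.20. Counts of INHBA for each FST count ran from 0.212 to 0.275 at 20% O2, 0.214 to 0.285 at 1% O2 and 0.0493 to 0.325 with 32-134D, and these ranges overlapped. The ratio of INHBA to FSTL3 was 0.0176 to 0.03, 0.015 to 0.0175 and 0.0037 to 0.0286 in the same order. There the vehicle groups lay just apart, and the 32-134D range overlapped both. The lowest value of each ratio was replicate 3 of 32-134D, on 5 INHBA counts.

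SMAD7 rose at 1% O2 and fell with 32-134D, with tight replicates. It lies on chromosome 18 (48919853 to 48952052, minus strand). Its level was 37.6, 35.5 and 37.3 CPM at 20% O2, 63.7, 68.5 and 61.5 CPM at 1% O2, and 40.0, 42.7 and 45.2 CPM with 32-134D. The 3 groups did not overlap, and the 32-134D libraries lay just above those at 20% O2. It was 1.75-fold higher at 1% O2 (log2 fold change 0.81, SE 0.080, edgeR FDR 6.47e-07) and 1.52-fold lower with 32-134D (-0.60, SE 0.077, FDR 1.52e-05; -0.64 without replicate 3). That second fold was close to the threshold of 1.5 and dropped below it in 9 of 16 alternative analyses, to between -0.41 with total library sizes and -0.57, DESeq2 at -0.54 included, while the FDR stayed at or below 0.000528. Against 20% O2 the difference was 0.21 (FDR 0.121), or 0.16 without replicate 3.

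**Figure D2:**
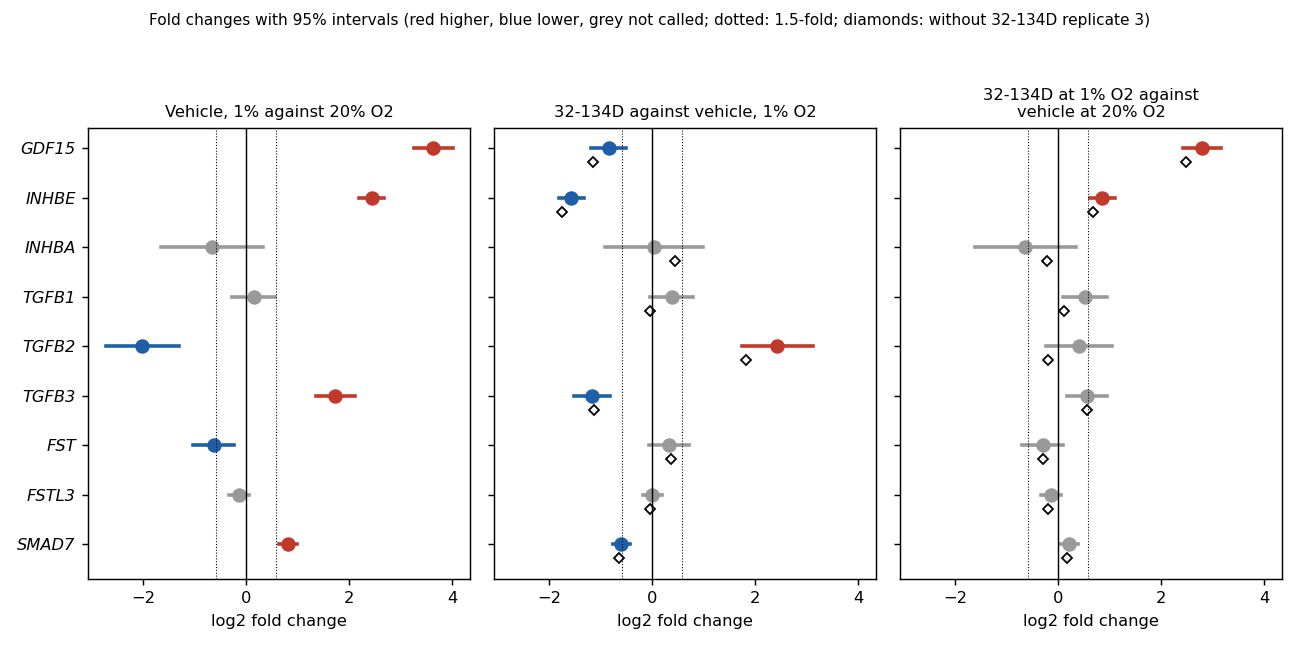
Log2 fold change of each member with its 95% interval in the 3 comparisons, red where called higher, blue where called lower and grey where not called, with dotted lines at 1.5-fold and open diamonds for the value without replicate 3 of 32-134D. GDF15 and INHBE lie right of the line in the third panel, and the diamonds of TGFB1 and TGFB2 lie left of their points with 32-134D.

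**Figure D3:**
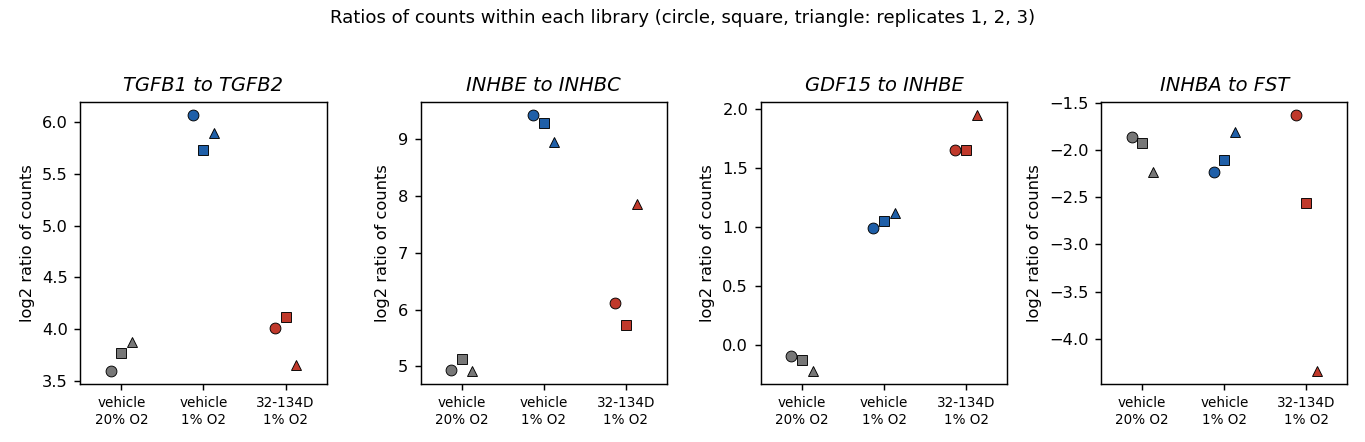
Log2 ratio of counts within each library for TGFB1 to TGFB2, INHBE to INHBC, GDF15 to INHBE and INHBA to FST, by group; axes do not start at 0. The first and second ratios peak at 1% O2 in vehicle, GDF15 to INHBE is highest with 32-134D, and INHBA to FST overlaps between groups.

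In the order of levels per kilobase at 20% O2, GDF15 (82.8 CPM per kb) led, followed by TGFB1 (65.5) and INHBE (63.5), whose libraries overlapped, then FSTL3 (22.6), SMAD7 (7.31), TGFB2 (3.07), FST (2.13), TGFB3 (0.776) and INHBA (0.187). At 1% O2 GDF15 reached 1026 CPM per kb and INHBE 343, both above TGFB1 at 72.2, and no neighbours in the order overlapped. With 32-134D the order was GDF15 (571 CPM per kb), INHBE (115) and TGFB1 (93.7), where INHBE and TGFB1 overlapped through replicate 3 of TGFB1, and the rest ran from FSTL3 (20.5) and SMAD7 (8.47) to INHBA (0.115). Lengths are the summed exon bases of each gene, so a gene whose shorter transcripts dominate is placed too low.

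The genes closest in pattern were found by the root mean square (rms) difference of centred log2 CPM over the 9 libraries, among 11526 candidates (11527 for INHBA). These values describe likeness over libraries that share the same 3 groups, so a high correlation is common. For INHBE the closest was ARID5A (rms difference 0.0879, r = 0.998), followed by ARRDC2 and IER5L, and for SMAD7 it was TRIB1 (0.0439, r = 0.992), followed by ZNF555 and FAM214B. GDF15 had no equally close partner: PDLIM3 (0.346, r = 0.989), ARRDC3 and ULBP1 came next to it. For TGFB2 the closest was SLC6A19 (0.161, r = 0.989), for TGFB3 SH2B2 (0.15, r = 0.983), for TGFB1 AZGP1 (0.0587, r = 0.984), for FST MRPL35 (0.127, r = 0.925), for FSTL3 CD151 (0.0387, r = 0.943) and for INHBA CDKN2C (0.308, r = 0.935).

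Around the 9 members, 89 further genes of the pathway were listed by role, of which 71 were tested, and the other 18 had 5 counts or fewer over all libraries. At 1% O2, 19 of the 71 were higher (26.8%, against 19.5% of all genes) and 22 lower (31%, against 20.3%), with a median log2 fold change of -0.059. With 32-134D, 18 were higher (25.4%, against 16.2%) and 14 lower (19.7%, against 13.7%), with a median of 0.076, or 19 and 16 without replicate 3. Against 20% O2, 5 were higher with 32-134D (among them BMP8B, AMH, SMURF2 and SNAI2, named after their values were seen, at 0.61, 0.86, 0.64 and 1.65) and 0 lower, and the first count was 2 without replicate 2 and 3 without replicate 3 of vehicle at 20% O2. SMURF2 lost its call without replicate 2 of vehicle at 20% O2 (0.58) or replicate 3 of 32-134D (0.50). BMP8B lost its own without replicate 1 or 2 of vehicle at 20% O2 or replicate 1 or 2 of 32-134D (0.49 to 0.59). AMH lost its call without replicate 3 of vehicle at 20% O2 (FDR 0.0636). SNAI2, whose groups overlapped, lost its call without replicate 2 or 3 of vehicle at 20% O2 or replicate 1 or 2 of vehicle at 1% O2 (edgeR FDR 0.0546 to 0.201). Where a pair of log2 fold changes is given for a gene of this list, the first is for hypoxia and the second for 32-134D. With total library sizes in place of TMM the median of all genes moved by -0.21 in hypoxia and by 0.18 with 32-134D, and the share of higher calls among all called genes went from 49% to 34.5% and from 54.2% to 72%.

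The genes that store and release TGF-beta formed the most one-sided role at 1% O2, with 0 of 10 higher and 7 lower (median log2 fold change -1.11). Under the other scalings 0 were higher and 7 or 8 lower, and of all genes 19.5% were higher and 20.3% lower. With 32-134D 6 of 10 were higher and 0 lower (median 0.82), where 16.2% and 13.7% of all genes were. ITGAV, the integrin alpha V chain that frees latent TGF-beta, had 267.6 to 295.3 CPM at 20% O2, 65.7 to 69.7 CPM at 1% O2 and 255.7 to 398.3 CPM with 32-134D, a log2 fold change of -2.06 (SE 0.14, edgeR FDR 1.18e-08) and then 2.15 (SE 0.14, FDR 2.26e-08). ITGB6, its beta partner, had 2.15 to 3.04 CPM at 20% O2, 0.106 to 0.311 CPM at 1% O2 and 2.19 to 7.96 CPM with 32-134D. Its log2 fold change was -3.62 in hypoxia (FDR 8.14e-05) and 4.33 with 32-134D (FDR 1.09e-05), or 3.60 without replicate 3. Between 32-134D and 20% O2 ITGB6 was not called (0.70, FDR 0.313). LTBP2, a latent TGF-beta binding protein of the matrix, fell by 1.80 (FDR 1.05e-09) and rose by 1.49 (FDR 1.69e-08). THBS1, thrombospondin 1, fell by 1.47 at 1% O2 (FDR 2.92e-07) and rose by 1.00 with 32-134D (FDR 2.06e-05). The summed level of the 6 fibroblast and stellate markers moved the same way, at a mean of 37.3 CPM at 20% O2, 17.9 at 1% O2 and 38.4 with 32-134D (17.2 to 43.4 over libraries), with 3 of 6 over 1 CPM in every library. Most of the sum was PDGFRB (9.44 to 29.3 CPM over libraries), LUM (1.88 to 12.9 CPM) and COL1A1 (2.73 to 10.4 CPM), while COL1A2 had 0.311 to 1.70 CPM and COL3A1 and DCN had 2 and 4 counts in all. The 5 leukocyte markers summed to 27.9, 9.56 and 18.3 CPM (8.03 to 30.3 over libraries), mostly LYZ, with 1 of 5 over 1 CPM in every library and PTPRC at 7 counts in all. COL1A1 is both a marker here and a target gene of the pathway list. The 4 endothelial markers, 0 of them over 1 CPM in every library, summed to 0.862, 0.22 and 0.860 CPM (0.0943 to 1.28 over libraries). Their part in the values of TGFB2 and of these genes was not tested.

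**Figure D4:**
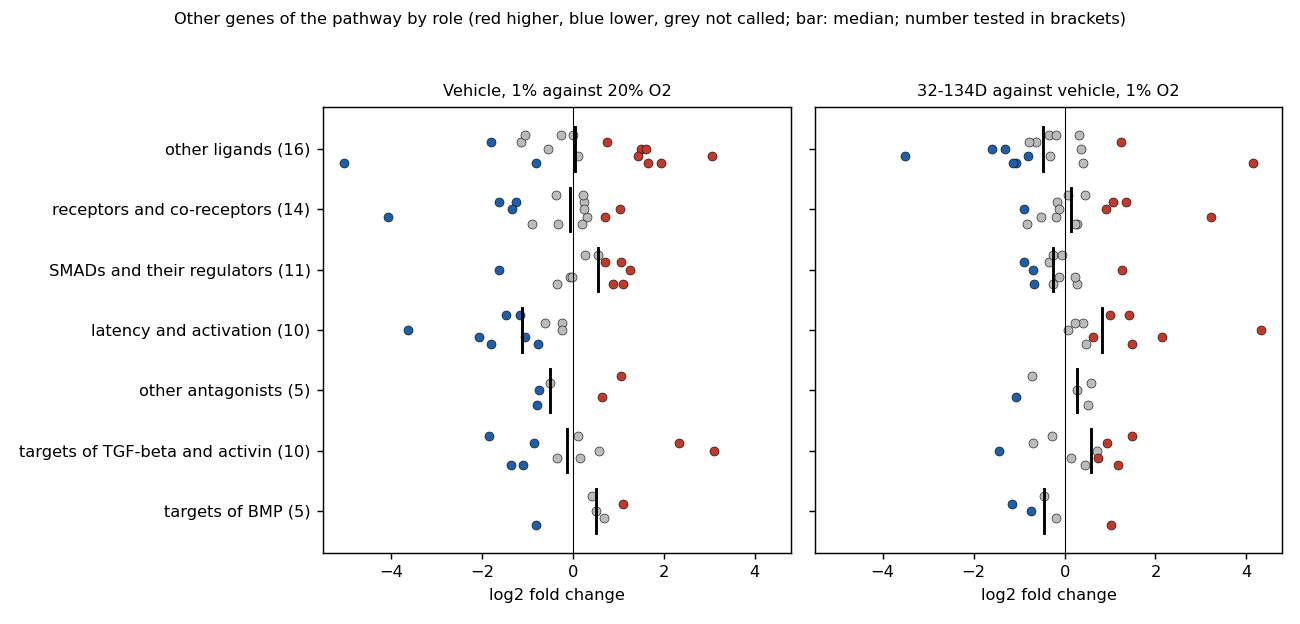
Log2 fold change of the 71 further pathway genes tested, by role, at 1% against 20% O2 in vehicle (left) and for 32-134D against vehicle at 1% O2 (right), each point a gene, coloured by its call, with a bar at the median. Both panels share the vehicle libraries at 1% O2, and the latency and activation genes lie left of 0 in the left panel and right of 0 in the right panel.

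Of the other 16 ligands tested, 7 were higher and 3 lower at 1% O2 (median 0.052), where 19.5% and 20.3% of all genes were. With 32-134D 2 were higher and 6 lower (median -0.48), where 16.2% and 13.7% of all genes were. Beside INHA and INHBB, BMP4, a BMP ligand of early liver development, rose by 1.51 (SE 0.16) and fell by 1.30 (SE 0.16, edgeR FDR 7.84e-06) with 32-134D. AMH, anti-Mullerian hormone, rose from 2.20 to 2.37 CPM at 20% O2 to 6.60 to 10.1 CPM at 1% O2 (1.93, FDR 7.02e-07). With 32-134D AMH fell by 1.07 (FDR 8.51e-05). The median of this group was -0.16 in hypoxia with total library sizes, so its sign depended on the scaling.

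Of the 14 receptors and co-receptors tested, 2 were higher and 4 lower at 1% O2, where 19.5% and 20.3% of all genes were. With 32-134D 4 were higher and 1 lower, where 16.2% and 13.7% of all genes were. With total library sizes in place of TMM, 1 was higher and 5 lower at 1% O2. In the fit with TMM, the receptor pair of the TGF-beta isoforms was called in opposite directions at 1% O2, TGFBR1 near the threshold at 1.62-fold. TGFBR2, which binds the ligand first, had 125.4 to 143.1 CPM at 20% O2, 51.7 to 56.8 CPM at 1% O2 and 74.7 to 117.6 CPM with 32-134D (log2 fold change -1.33, SE 0.13, edgeR FDR 7.21e-07, and then 0.90, SE 0.13, FDR 4.56e-05). TGFBR1, the signalling kinase, had 25.2 to 29.1 CPM, 42.8 to 45.5 CPM and 25.5 to 34.2 CPM (0.69, SE 0.11, FDR 5.77e-05). BMPR1B, a type I BMP receptor, was -1.25 (FDR 4.7e-05) and 1.35 (FDR 1.91e-05). GFRAL, the receptor of GDF15, had 0 counts over the 9 libraries, which allows a level of up to 0.013 CPM, and RET had 1 count.

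Of the 11 SMADs and SMAD regulators, 5 were higher and 1 lower at 1% O2 (median 0.55), where 19.5% and 20.3% of all genes were. With 32-134D 1 was higher and 3 lower (median -0.25), where 16.2% and 13.7% of all genes were. With total library sizes the counts were 4 and 1 at 1% O2, and 1 and 1 with 32-134D (median -0.057). The inhibitory SMADs were called in opposite directions: SMAD6, which restrains BMP signalling, had 19.3 to 21.3 CPM at 20% O2, 6.46 to 6.88 CPM at 1% O2 and 14.95 to 16.7 CPM with 32-134D (log2 fold change -1.62, SE 0.11, edgeR FDR 7.95e-09, and then 1.26, SE 0.10, FDR 1.94e-07), while SMAD7 was higher at 1% O2 and lower with 32-134D. SMAD4, the shared partner of the receptor SMADs, rose by 1.09 (SE 0.068, FDR 5.81e-09), and SMAD1, a BMP receptor SMAD, rose by 1.25 (SE 0.13, FDR 7.43e-07) and fell by 0.69 with 32-134D (FDR 0.000168), a call lost without replicate 1 of vehicle at 1% O2 (-0.55). SMAD4 fell by 0.67 with 32-134D (FDR 1.13e-06), near the threshold at 1.59-fold. SMAD9, another BMP receptor SMAD, rose by 1.06 at 1% O2 (FDR 0.00011) and fell by 0.88 with 32-134D (FDR 0.000363).

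The remaining antagonists split at 1% O2 in the fit with TMM, with 2 of 5 higher and 2 lower, where 19.5% and 20.3% of all genes were. The counts were 1 higher and 2 lower with RLE scaling, and 0 higher and 3 lower with total library sizes. BAMBI, a decoy receptor, fell by 0.80 (SE 0.098, edgeR FDR 5.94e-06) and CHRD, the BMP antagonist chordin, by 0.74 (SE 0.12, FDR 6.63e-05). CER1, an antagonist of nodal and BMP, was called at 0.65 (FDR 0.0421) on 4.55 to 5.16 against 7.16 to 8.40 CPM, but leaving out any vehicle library or replicate 1 of 32-134D ended this call, at 0.57 to 0.70. With 32-134D CER1 fell by 1.07 (FDR 0.00185).

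The target genes did not move as a block. Of 10 targets of TGF-beta and activin, 2 were higher and 4 lower at 1% O2 (median -0.12), where 19.5% and 20.3% of all genes were. With 32-134D 4 were higher and 1 lower (median 0.58), or 3 and 2 without replicate 3 (median 0.048). Of all genes, 16.2% were higher and 13.7% lower with 32-134D. FN1, the matrix protein fibronectin, went from 2361 to 3187 CPM at 20% O2 to 972.8 to 1239 CPM at 1% O2 and 2495 to 2589 CPM with 32-134D (-1.36, SE 0.11, FDR 9.83e-08, and then 1.17, SE 0.11, FDR 8.43e-07). CCN2, connective tissue growth factor, fell by 1.10 at 1% O2 (SE 0.24, FDR 0.00122) and was not called with 32-134D (0.45, FDR 0.137). COL1A1, a collagen chain, fell by 0.85 at 1% O2 (FDR 0.0112). It rose by 0.94 with 32-134D (SE 0.24, FDR 0.00514), a call lost without replicate 3 (0.56). Between 32-134D and 20% O2 COL1A1 was not called (0.085, edgeR FDR 0.882).

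Of 5 BMP targets, 1 was higher and 1 lower at 1% O2, where 19.5% and 20.3% of all genes were. With 32-134D 1 was higher and 2 lower, where 16.2% and 13.7% of all genes were. ID2, an inhibitor of basic helix-loop-helix factors, had 101.4 to 124.6 CPM at 20% O2, 214.9 to 256 CPM at 1% O2 and 94.8 to 111.2 CPM with 32-134D (log2 fold change 1.10, SE 0.098, edgeR FDR 2.21e-07, and then -1.15, SE 0.097, FDR 2.64e-07). ID1, of the same family, fell by 0.73 with 32-134D (SE 0.094, FDR 1.53e-05), and ATOH8, a BMP-responsive transcription factor of liver, was -0.81 (FDR 0.00637) and 1.03 (FDR 0.000988).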

How the data were processed

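RNA from 9 wells of Hep3B cells was sequenced on a NovaSeq6000, and the authors deposited raw counts per Ensembl gene on GRCh38, after FastQC, Bbduk trimming, STAR alignment and featureCounts; tool versions and the strand setting are not given in the sources used here, and their normalization with DESeq2 was not used. The 9 columns were matched by sample title, with 0 left unmapped and 0 rows without a gene name. The labels describe 3 biological replicates in separate wells, so p-values measure the spread between wells.

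Genes with 10 or more counts in total were fitted together over all 9 libraries by the quasi-likelihood method of edgeR 4.0.16 (R 4.3.3) after TMM scaling, with Benjamini-Hochberg adjustment over 22672 genes, a threshold of FDR 0.05 and a fold change of 1.5. The common biological coefficient of variation was 10.5%. Intervals are 95%. Replicates of a group differed by more than counting error (chi-square per degree of freedom 1.64 to 40.5), so none was a mere repeat of another library's sequencing. Whether separate libraries shared the same RNA cannot be told from these values. CPM used TMM-scaled library sizes, and CPM per kb the union of exons in GENCODE 29 on GRCh38; ratios within a library added 0.5 to each count.

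The members, lists and tests were chosen with earlier results of these data known. Named besides the members are, per role and comparison, up to 3 pathway genes with the largest absolute log2 fold change past both thresholds, provided that the higher group averaged 100 normalized counts or more and that the libraries of the groups did not overlap, the stress genes, genes overlapping a member, and the 3 genes nearest in pattern. BMP8B, AMH, SMURF2 and SNAI2 in the comparison with 20% O2 were named outside this rule, after their values were seen. The values of 1 target gene are not reported here. Promoter windows are from RefSeq on GRCh38.p14. The procedure was tested on simulated data. Alternatives were DESeq2 1.42.0, RLE and total-size scaling, other filters and fold thresholds, fits of 2 groups, leaving out single libraries and a replicate block.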

Additional observations from a re-analysis of the deposited data

How the results depend on the processing

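Each result was recomputed under the alternatives named in the processing summary. Of the log2 fold changes of single members, 407 changed neither sign nor call, 11 lost a call, 3 gained one and 8 turned sign, and of the counts of called genes 201 stayed within 1.5 times and 15 did not. Calls needing a fold above 2 gave 1 member lower in hypoxia, 2 lower with 32-134D and 1 higher against 20% O2, 8 pathway genes lower with 32-134D and 2 higher against 20% O2. With no fold threshold, 8 pathway genes were higher and 6 lower against 20% O2, with no filter on counts 2 were lower, and with only the groups compared in the fit 3 were higher. Leaving out 1 library at a time gave 1 to 2 members higher with 32-134D (TGFB1 being added without its replicate 1), 1 to 2 lower in hypoxia (FST being lost without vehicle replicate 1 at 20% O2 or replicate 3 at 1% O2), and, against 20% O2, 2 to 6 pathway genes higher and 0 to 1 lower. The cause was not tested.

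The sign turned for members that were not called. FSTL3 with 32-134D was -0.0077 with no filter and ran from -0.070 to 0.13 over left-out libraries, TGFB1 in hypoxia was -0.074 with total library sizes, and over left-out libraries TGFB1 with 32-134D ran from -0.038 to 0.61, INHBA with 32-134D from -0.70 to 0.44 and TGFB2 against 20% O2 from -0.20 to 0.66. With at least 10 counts in every library INHBA could not be fitted. Samples with the same replicate number did not deviate together (correlations from -0.208 to 0.0885, against -0.197 to 0.245 for unlike numbers). No pairing by number was seen, though these values cannot exclude a weak pairing. With the number as a replicate block the counts of called members were unchanged at 4 and 2 in hypoxia, 1 and 4 with 32-134D and 2 and 0 against 20% O2. The pathway counts were then 18 and 22, 18 and 15, and 5 and 0, and INHBA with 32-134D was -0.11. Depth limits INHBA, TGFB3 and FST, with 7 to 28 counts in the smallest library.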
